A study of Mus musculus with 5 samples.

Results

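The genes described here were 10 members of the interleukin-1 (IL-1) family and the inflammasome, chosen by symbol among the 32285 genes listed in the count files. They were the ligands Il1a, Il1b, Il18 and Il33, the antagonist Il1rn, the receptors Il1r1 and Il1r2, and the inflammasome genes Nlrp3, Casp1 and Pycard. All 10 were found. They were measured by droplet single-cell RNA sequencing of kidneys from wild-type C57BL/6 males, whose age was between 8 and 10 weeks. The control mice (1 library) received vehicle on the same schedule as the toxin-treated mice. Their time point is given as baseline, entered here as week 0, and how it relates to that schedule is not stated. Acute kidney injury (AKI, 2 libraries, week 2) followed intraperitoneal aristolochic acid I, a plant toxin that injures the proximal tubule, given at 3 mg/kg at intervals of 3 days for 2 weeks. Chronic kidney disease (CKD, 2 libraries, week 4) was sampled after a further 2 weeks without the toxin. No group carried a transgene, and the model is a toxin model, so values at week 4 describe kidneys after withdrawal.

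Interleukin-1 alpha and beta signal through the same receptor, Il1r1, with the accessory chain Il1rap. Il1rn encodes the receptor antagonist, which occupies Il1r1 without signalling, and Il1r2 encodes a decoy receptor that binds ligand and has no signalling tail. Interleukin-1 beta and interleukin-18 are made as inactive precursors that caspase-1 (Casp1) cuts inside inflammasomes, which form when a sensor such as Nlrp3 recruits the adaptor ASC (Pycard). Interleukin-1 alpha and interleukin-33 act as alarm signals that dying cells release. Transcript counts show the precursor messenger only, so cleavage and release were not measured.

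The promoters of the 3 members that were lower in CKD than in AKI macrophages by both count tests, and that of Il1rn, which was not, are shown because these genes are the core of the results below. Each is the 5′ to 3′ strand of the gene from 250 bases before to 50 bases after a RefSeq start site (build GRCm38.p6), 300 bases in all. Capitals mark matches to the AP-1 motif TGANTCA or to the kappaB consensus, searched on both strands with no overlap between the matches shown. Il1a lies at chr2:129309923-129310222 on the minus strand, Il1b at chr2:129371090-129371389 on the minus strand, Il1rn at chr2:24336610-24336909 on the plus strand (1 of 3 listed starts), and Nlrp3 at chr11:59541319-59541618 on the plus strand (1 of 2 listed starts).
Il1a: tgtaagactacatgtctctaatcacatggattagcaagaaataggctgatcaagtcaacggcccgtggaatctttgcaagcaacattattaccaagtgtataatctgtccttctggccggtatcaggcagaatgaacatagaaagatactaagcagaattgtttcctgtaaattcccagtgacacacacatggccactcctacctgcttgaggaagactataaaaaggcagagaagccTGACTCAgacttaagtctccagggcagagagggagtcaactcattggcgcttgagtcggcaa
Il1b: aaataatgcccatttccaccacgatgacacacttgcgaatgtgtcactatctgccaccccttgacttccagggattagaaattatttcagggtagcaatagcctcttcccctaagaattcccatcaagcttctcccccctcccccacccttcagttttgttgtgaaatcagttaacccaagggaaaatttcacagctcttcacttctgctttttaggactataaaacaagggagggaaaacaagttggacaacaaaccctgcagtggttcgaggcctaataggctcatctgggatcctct
Il1rn: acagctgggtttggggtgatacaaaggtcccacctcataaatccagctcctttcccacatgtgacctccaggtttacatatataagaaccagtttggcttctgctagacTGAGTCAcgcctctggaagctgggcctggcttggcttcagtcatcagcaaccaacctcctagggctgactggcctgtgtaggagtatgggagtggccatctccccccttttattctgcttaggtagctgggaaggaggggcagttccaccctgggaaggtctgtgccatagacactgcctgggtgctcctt
Nlrp3: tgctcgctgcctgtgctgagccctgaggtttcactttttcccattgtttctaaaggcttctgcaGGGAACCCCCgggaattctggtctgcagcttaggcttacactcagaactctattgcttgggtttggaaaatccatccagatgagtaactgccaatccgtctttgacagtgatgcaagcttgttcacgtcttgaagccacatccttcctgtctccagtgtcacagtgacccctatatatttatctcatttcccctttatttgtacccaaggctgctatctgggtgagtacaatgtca
Counted from the start site, the AP-1 motif stood at -12 in Il1a and at -141 in Il1rn, and the kappaB consensus at -186 in Nlrp3. Over the 15 windows of all 10 members, 2 held the AP-1 motif and 2 the kappaB consensus, against 7.81% and 8.46% of 32851 promoters. No match in the Il1b window says only that these letters are not in these 300 bases.

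After filtering, 53718 of 72896 barcodes were kept (8496 control, 10199 and 9910 AKI, 16330 and 8783 CKD), with 54857587 to 79361558 UMIs (tags that each mark 1 captured molecule) per library. The share of barcodes with more than 30% mitochondrial UMIs was 38.7% in the control, against 11.1% to 12.7% after the toxin. The control shared 111 cell barcodes with CKD 2, and 83 of these control cells held over 20 times fewer UMIs than their counterpart. Cells fell into 64 clusters, named from marker genes as 22 classes, and 5581 cells stayed unnamed. Levels are in counts per 1000000 (CPM): UMIs of a gene for each 1000000 UMIs of a class in a library. They come from 3′ tags, which count a molecule once whatever its length. Leaving those 83 cells out gave 1031 CPM of Il1b in control macrophages, against 1027 with them. The control was 1 library, so it was described and not tested, and AKI and CKD were compared by the edgeR quasi-likelihood test on summed UMIs, 2 libraries against 2. No label says whether 1 library was 1 mouse, so p-values measure only the spread between these libraries.

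Il1b was highest in neutrophils, at 1466 CPM in the control, 5835 and 5174 in AKI, and 4187 and 3917 in CKD. These cells were few (9, 44, 33, 45 and 26) and carried the neutrophil markers S100a8 and S100a9. The neutrophil range in AKI and CKD lay above that of every other class. Type 2 conventional dendritic cells (cDC2, antigen-presenting cells marked by Cd209a) held 642, 1440, 1863, 1587 and 1351 in the same order of libraries. Monocytes held 1414, 937, 2150, 1413 and 1364, and macrophages 1027, 1145, 1220, 543 and 636. The ranges of cDC2, monocytes and macrophages overlapped, and type 1 dendritic cells followed at 416 to 748 after the toxin. The 5 classes with the most Il1b were all myeloid, and the macrophage level in the control was 1027.

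**Figure D1:**
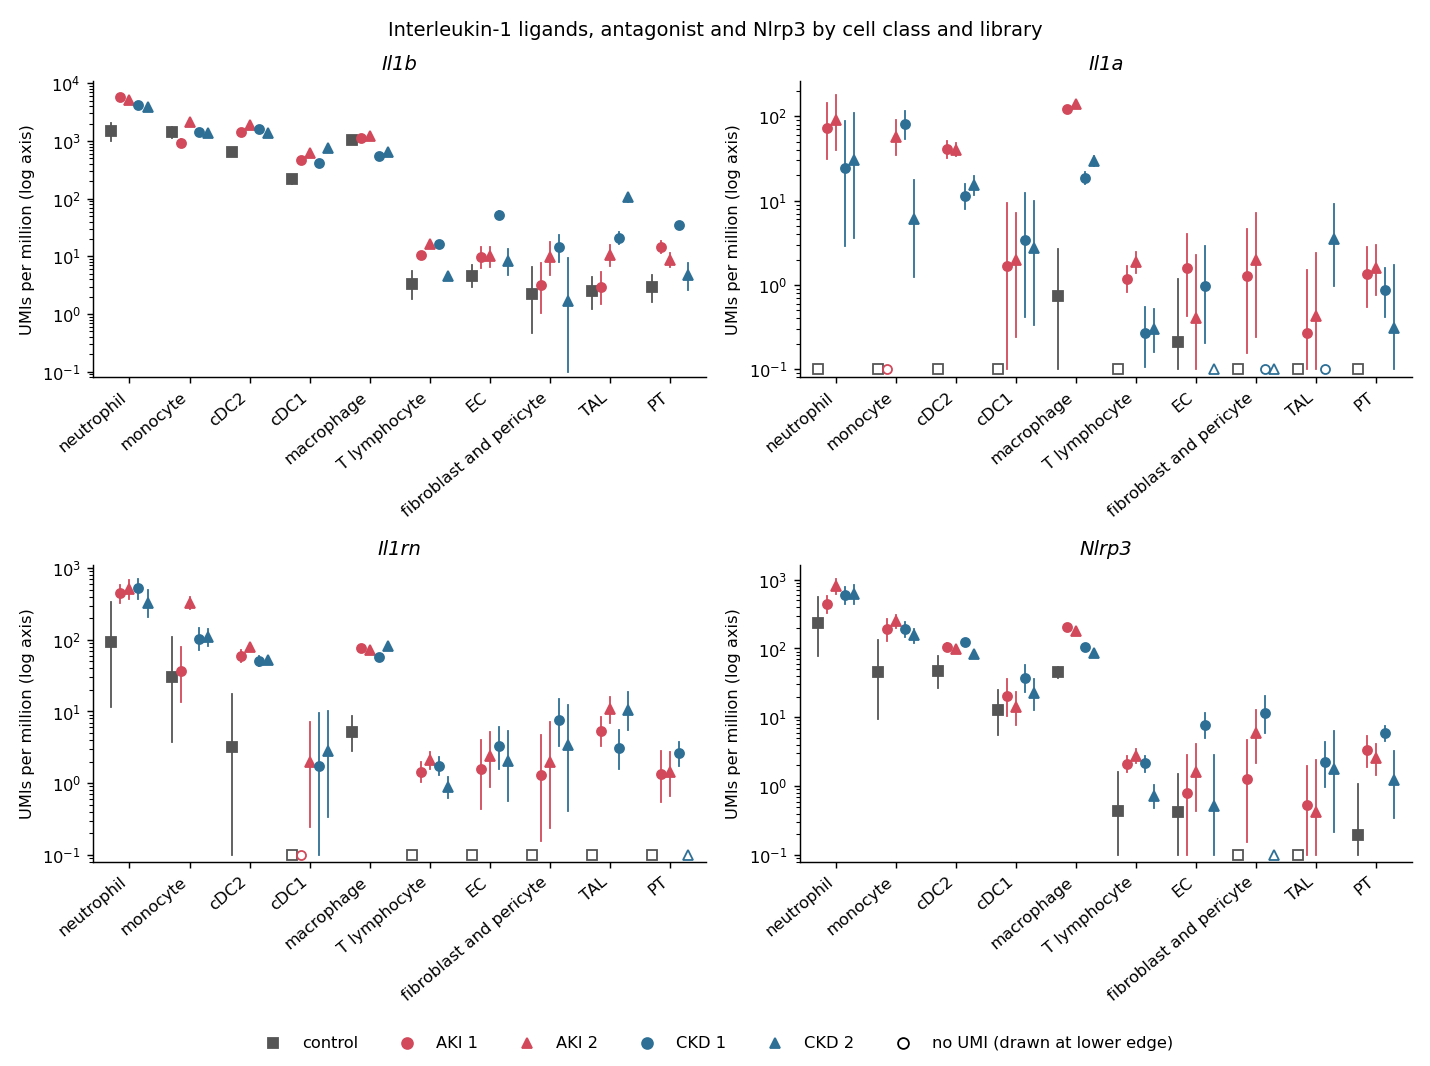
CPM (log axis) of Il1b, Il1a, Il1rn and Nlrp3 in 10 cell classes; each point is 1 library (control grey, AKI red, CKD blue), bars are exact 95% Poisson intervals, and open symbols at the lower edge had no UMI. Neutrophils had the highest mean levels of Il1b, Il1rn and Nlrp3, and macrophage Il1a was at 0.73 in the control, 122 and 140 in AKI and 18.5 and 29.5 in CKD. EC, endothelial cells; TAL, thick ascending limb; PT, proximal tubule.

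In epithelium the Il1b level was 2.14 CPM in the control, 10.3 and 9.27 in AKI, 32.7 in CKD 1 and 15.3 in CKD 2, summed over 7 classes. T lymphocytes, used here as cells in which Il1b should be near the level of free RNA, held 3.33, 10.7, 16.2, 16.3 and 4.52. After each cell was thinned to 1000 UMIs, 0.206% of epithelial cells had an Il1b UMI in the control and 4.62% in CKD 1, against 0.343% and 2.88% of T lymphocytes. The median depth of T lymphocytes was 3335 UMIs in the control and 3547 in CKD 1. That of proximal tubule went from 3528 to 2897, of thick ascending limb from 11172 to 3132, and of intercalated cells from 19347 to 2594. Proximal tubule cluster 16, with 973 of 1084 cells in CKD 1, held 70.6 CPM of Il1b over all libraries. T lymphocyte cluster 11, with 925 of 1245 cells in CKD 1, held 75.7. The part of depth and of these clusters was not tested. The epithelial level lay above that of T lymphocytes in both CKD libraries and below it in the others. CKD 1 stood above the other libraries in proximal tubule, at 35.6 against 2.91 to 14.8. An exception was the thick ascending limb of CKD 2, at 106 CPM from 120 UMIs, all in 3 of its 57 cells. Without the thick ascending limb, a choice made after the data were seen, the epithelial level was 3.10 in CKD 2, below its T lymphocytes, 34.6 in CKD 1, and 11.9 in AKI 1, above its T lymphocytes. The CKD 2 order thus rests on 3 cells. Free RNA was not removed here, and its part in these low levels was not tested.

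Which cells held the transcripts depended on cell numbers as well as levels. Macrophages held 81.4% of the control's Il1b UMIs, 63.3% and 59.5% in AKI, and 33.2% and 37.7% in CKD. The share of cDC2 was 5.90% in the control, 20.1% and 24.9% in AKI, and 38.0% and 46.6% in CKD, and cDC2 numbered 40, 132, 207, 489 and 275 cells. In both CKD libraries the cDC2 class held more Il1b UMIs than the macrophage class did (4902 against 4279, and 5858 against 4742). The cDC2 class includes cluster 35, whose marker score was 1.79 for cDC2 and 1.56 for macrophages. That cluster held 214 cells in CKD 1 and 57 in CKD 2, and the order without it was not tested. Neutrophils, the class with the highest level, held 0.897% of the UMIs in the control and 2.01% to 4.85% after the toxin. Shares depend on which cells survived dissociation, and fewer cells of a type in the tissue and fewer caught cannot be told apart.

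**Figure D2:**
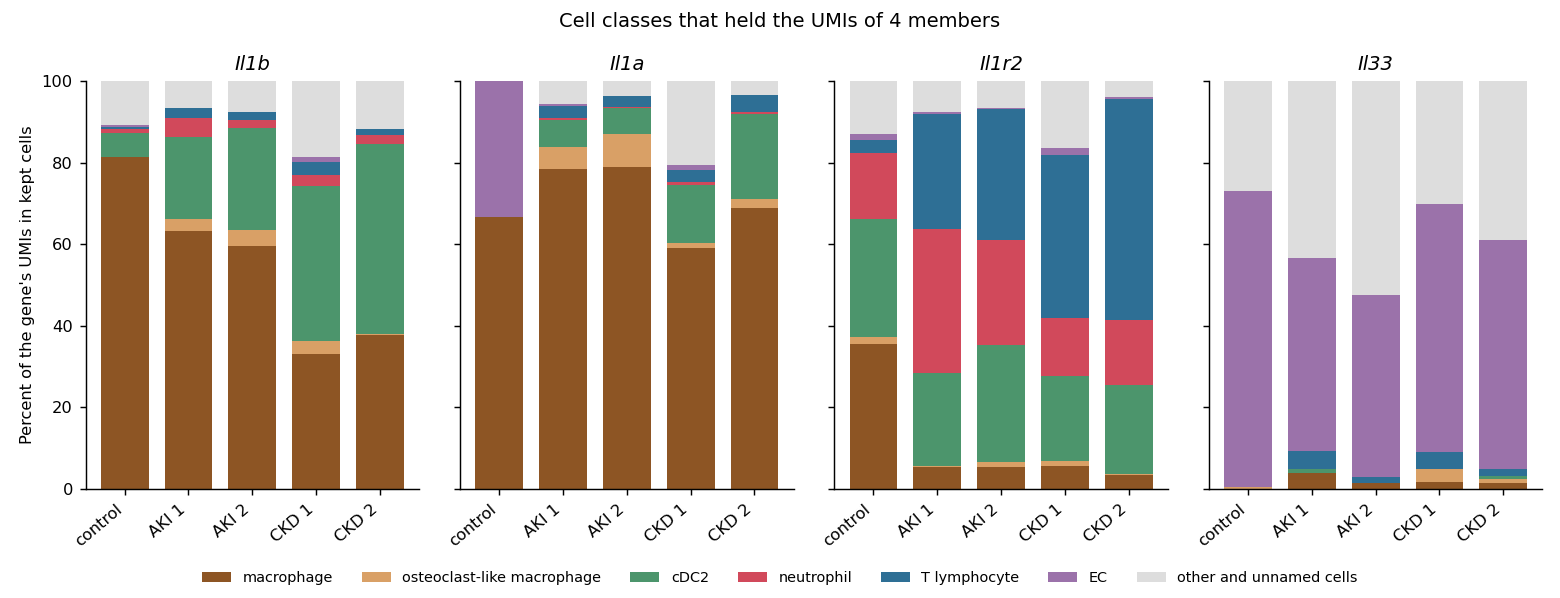
Percent of the UMIs of Il1b, Il1a, Il1r2 and Il33 (each bar sums to 100%) that lay in 6 cell classes or in other and unnamed cells, per library. The macrophage part of Il1b ran from 81.4% in the control to 33.2% in CKD 1, and the cDC2 part from 5.90% to 46.6% in CKD 2; the control bar of Il1a rests on 3 UMIs.

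In macrophages, Il1b was lower in CKD than in AKI (1183 ± 53.0 against 589 ± 65.2 CPM, SD, n = 2 each), without overlap. The log2 difference was -1.17 (SE 0.127, adjusted p = 0.0015). The share of macrophages with an Il1b UMI after thinning to 1000 UMIs was 39.8% in the control, 42.3% and 39.4% in AKI, and 24.2% and 28.1% in CKD. Unthinned shares were 54.4%, 61.7%, 58.7%, 36.5% and 41.9%, and thinned T lymphocyte shares were 0.343% to 2.88%. The control level lay just under both AKI levels, so the ratio of AKI to control was 1.16 (1.11 to 1.21, exact interval, counting error only) and that of CKD to control 0.573 (0.549 to 0.598).

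Il1a behaved differently from Il1b in its control level. Macrophages held 2 Il1a UMIs in the control, or 0.730 CPM, against 122 and 140 in AKI and 18.5 and 29.5 in CKD. The CKD levels lay below both AKI levels and above the control. The log2 difference between CKD and AKI was -2.62 (SE 0.226, adjusted p = 0.00093). Macrophages held 78.3% and 79.0% of all Il1a UMIs in AKI and 59.1% and 69.0% in CKD. Of the 3 control UMIs in the whole library, 2 were in macrophages.

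The inflammasome sensor Nlrp3 was also lower in CKD than in AKI macrophages. Its levels were 45.2 in the control, 202 and 178 in AKI, and 106 and 85.8 in CKD. The log2 difference was -1.16 (SE 0.138, adjusted p = 0.0020). The AKI to control ratio was 4.15 (3.47 to 5.01) and the CKD to control ratio 2.12 (1.77 to 2.57). CKD macrophages thus held more Nlrp3 than the control, and less Il1b. Il18, the other caspase-1 substrate, was sparse at 13.9 in the control, 18.0 and 18.8 in AKI, and 11.6 and 13.001 in CKD. It was called lower in CKD by edgeR (log2 difference -0.75, adjusted p = 0.0157) but not by DESeq2 (adjusted p = 0.0614). With 1 library left out, an arm holds a lone library that is assumed to vary like the other arm, so such fits are given only as a check of the calls. The Il18 call was lost without AKI 1 (adjusted p = 0.0831) or AKI 2 (0.0951). Of the 8 members tested in macrophages, 4 were lower and 0 higher, beside 15.3% of all 11597 genes tested called lower and 15.7% called higher.

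Il1rn, Casp1, Pycard and Il1r2 were not called in macrophages. Il1rn, at 5.11 in the control, was at 75.8 and 71.9 in AKI and 57.5 and 82.2 in CKD, with overlapping groups (log2 difference -0.25, SE 0.190, adjusted p = 0.374). Its difference rested on single libraries: it was -0.58 without CKD 2, where the lone CKD library gave an adjusted p of 0.00013, and 0.017 without CKD 1. Casp1 was at 48.2, 38.5, 41.5, 43.4 and 53.9, and Pycard at 86.1, 187, 210, 266 and 291. Pycard gave a log2 difference of 0.32 (adjusted p = 0.0845), and 0.41 with CKD 2 as the lone CKD library (adjusted p = 0.0021). The calls in macrophages thus lay in ligands and the sensor, and a missed threshold for the antagonist, protease and adaptor does not show equal levels.

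Other measures moved with these calls. All 11 genes of a dissociation and early response list (Fos, Jun, Egr1, Atf3, Hspa1a and others) were lower in CKD macrophages, with a median log2 difference of -1.37. Their summed level was 31804 in the control, 23621 and 23458 in AKI, and 9200 and 10829 in CKD. Among the macrophage markers, Adgre1 (251, 241, 203, 73.0 and 71.0) and Csf1r (482, 572, 528, 203 and 256) ran the same way, while Cd68 was at 309 to 429 throughout. The other markers listed for the class, C1qa, C1qb and C1qc, are not described here. The macrophage class also did not hold like cells at both stages. The osteoclast gene Ctsk was at 1.90 and 1.55 in AKI and at 697 and 253 in CKD. Acp5, also of osteoclasts, was at 130 and 144 in AKI and at 1313 and 884 in CKD. Fn1 was at 248 and 273 in AKI and at 31.1 and 32.8 in CKD. The part of all these genes, and of the cells that carry them, in the Il1b, Il1a and Nlrp3 differences was not tested.

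Of the 8 clusters in the macrophage class, 5 had at least 20 cells in each of the 4 libraries, and the Il1b difference was uneven among them. These tests were chosen after the data were seen. The makeup of the class also differed: cluster 12 held 273 of 765 and 356 of 1095 macrophages in AKI, and 174 of 1364 and 113 of 513 in CKD, where cluster 10 held 478 and 122. The other clusters were too small to test. In cluster 45 (10 and 17 cells in AKI, 104 and 57 in CKD) Il1a was at 312 and 191 CPM in AKI and 0 and 1.80 in CKD. In cluster 51 (12, 17, 64 and 46 cells in the same order) it was at 169, 327, 22.5 and 28.9. Cluster 39 (34, 33, 171 and 19 cells) held 18.6 over all libraries, and its levels per library are not described here. In cluster 12 (Ccl8, Pf4, Mrc1) Il1b was at 1314 in the control, 1035 and 944 in AKI, and 907 and 1076 in CKD, a log2 difference of -0.17 (adjusted p = 0.558). In cluster 29 (Lyz1, Mmp12, Cxcl2) it was at 1893, 1516, 1693, 1887 and 2055, a difference of 0.20 (adjusted p = 0.310). Clusters 10 and 23 gave -0.02 (adjusted p = 0.994) and -0.50 (adjusted p = 0.228). Il1b was not called in any of these 4 clusters, by edgeR or DESeq2. In clusters 12, 23 and 29 the early response list was lower in CKD for 9, 10 and 10 of its 11 genes.

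**Figure D3:**
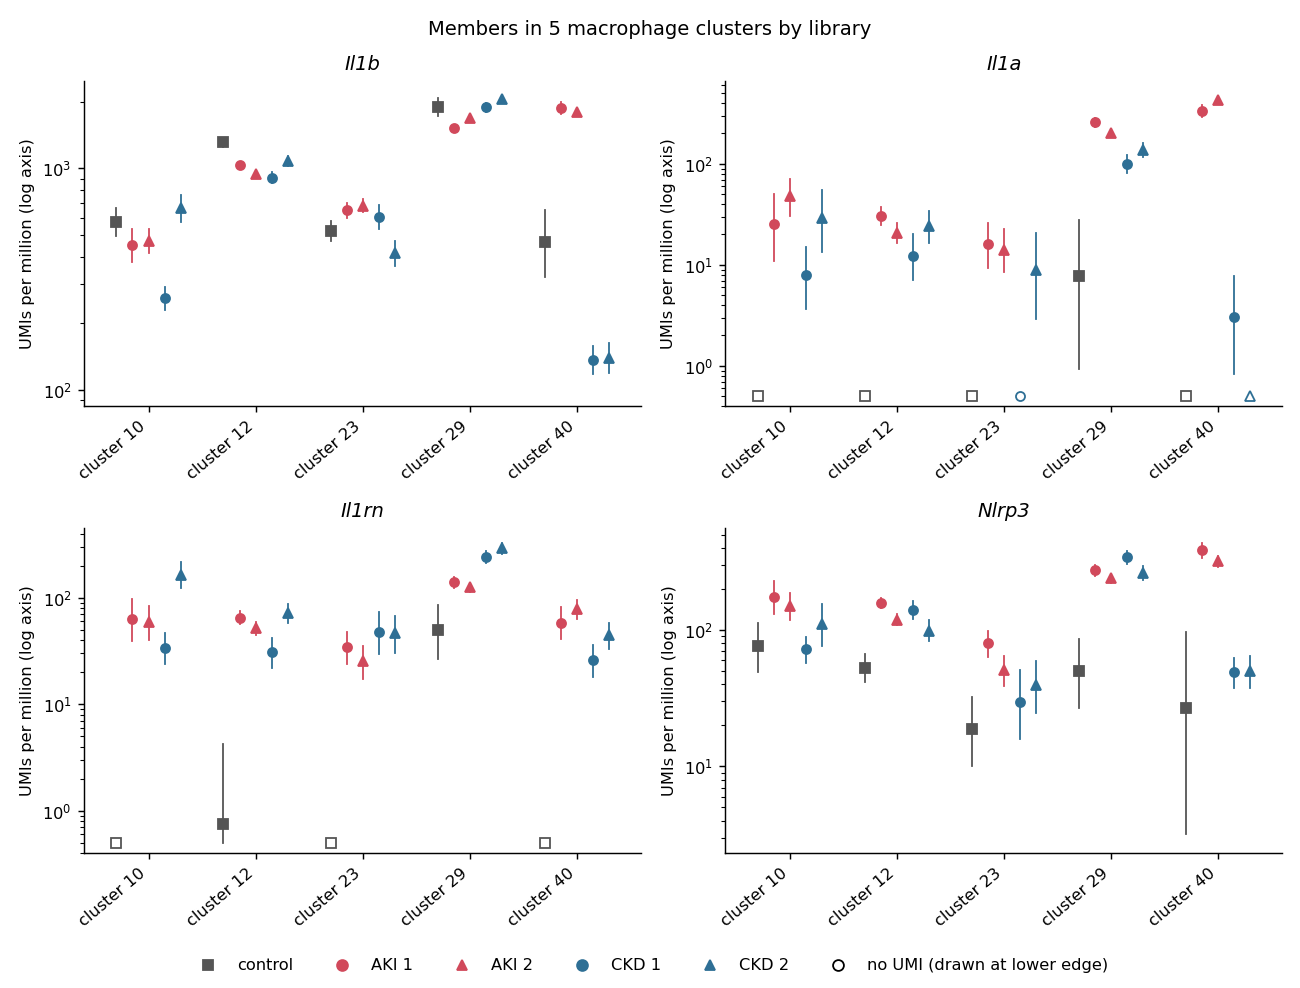
CPM (log axis) of Il1b, Il1a, Il1rn and Nlrp3 in 5 macrophage clusters; each point is 1 library with its exact 95% Poisson interval, and open symbols had no UMI. In cluster 40, Il1b was at 1877 and 1793 in AKI and at 137 and 140 in CKD, while in cluster 29 its CKD levels, 1887 and 2055, lay above both AKI levels.

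In cluster 40 (Fn1, Trem2, Tgfbi, Lpl) Il1b was at 465 in the control, 1877 and 1793 in AKI, and 137 and 140 in CKD. The log2 difference was -3.76 (SE 0.152). Il1a went from 335 and 433 in AKI (201 and 570 UMIs) to 3.06 and 0 in CKD (4 and 0 UMIs). Nlrp3 went from 384 and 319 to 49.0 and 49.6 (log2 difference -2.86). Il1rn was lower too, at 58.4 and 78.2 in AKI and 26.0 and 44.5 in CKD (-1.05, adjusted p = 0.0150; without CKD 1, adjusted p = 0.0603, and without AKI 2, 0.130). Casp1 was higher in CKD, at 35.0 and 40.2 against 71.2 and 89.0 (1.01, adjusted p = 0.0068). The cluster was small, with 17, 36, 72, 85 and 49 cells.

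Cluster 40 did not hold like cells at both stages. Fn1, a matrix gene of infiltrating macrophages, was at 1675 and 1213 in its AKI cells and at 6.13 and 7.70 in its CKD cells. Acp5, an acid phosphatase of osteoclasts, was at 179 and 131 in AKI and at 1664 and 1847 in CKD. In this cluster 30.5% of 7464 genes were called, against 11% in cluster 29, 5.75% in cluster 12, 4.59% in cluster 23 and 0% in cluster 10. The early response list was much the same there at both stages, at 7212 and 7540 in AKI and 5785 and 7426 in CKD, with 3 of 11 genes lower and 1 higher. Clustering aligned libraries by their components, so the difference describes the Fn1-high cells of AKI against the Acp5-high cells of CKD.

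Cluster 29, the highest in Il1b at week 4 among the 5 tested macrophage clusters, showed a different set of calls. Il1a was lower in CKD (257 and 201 against 101 and 138, log2 difference -1.03, adjusted p = 0.0066), still the highest CKD levels among the 5 clusters. Il1rn was higher, at 139 and 125 in AKI and 244 and 293 in CKD (0.93, adjusted p = 0.0036). Nlrp3 was at 273, 238, 340 and 261 and was not called (0.14, adjusted p = 0.640). Il18 was lower (-1.32, adjusted p = 0.0364; DESeq2 gave none) on 28 and 60 UMIs in AKI and 8 and 7 in CKD, and the call was lost without AKI 2, CKD 1 or CKD 2. Pycard was higher in clusters 12 (0.56, adjusted p = 0.0296) and 29 (0.50, adjusted p = 0.0432). Neither Pycard call held under DESeq2 (adjusted p = 0.0902 and 0.0815) or without AKI 1 or AKI 2. The cluster 12 call was also lost without CKD 2 and the cluster 29 call without CKD 1.

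The difference between clusters 40 and 29 was itself tested, with the library as a block, in a fit in which 17.3% of 7959 genes were called. The change from AKI to CKD was lower in cluster 40 by -3.97 for Il1b (SE 0.140, adjusted p = 4.2e-15), by -6.84 for Il1a and by -3.00 for Nlrp3 on the log2 scale. For Il1rn it was -2.01 (adjusted p = 6.9e-06), and for Casp1 1.40 (adjusted p = 0.0018). Il1r2 gave -4.72 (SE 1.38), on 1 UMI in cluster 40 in CKD. Pycard (-0.48, adjusted p = 0.0596) and Il18 (1.49, adjusted p = 0.103) were not called.

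The antagonist was counted against its agonist in the same cells. Macrophages held 0.00498 Il1rn UMIs per Il1b UMI in the control (14 against 2814 UMIs), 0.0662 and 0.0589 in AKI, and 0.106 and 0.129 in CKD. The exact intervals (counting error only) of the control, 0.00272 to 0.00836, and of both AKI libraries, 0.0548 to 0.0721, did not meet each other or those of CKD, 0.0959 to 0.141. The ratio in CKD macrophages was thus above that in AKI in both libraries, where Il1b was lower and Il1rn overlapped. In cDC2 the ratio was 0.0412 and 0.0429 in AKI and 0.0318 and 0.0393 in CKD, and in neutrophils 0.0760 to 0.124 over the 4 libraries. Over all kept cells it was 0.00926 in the control and 0.0627 to 0.0830 after the toxin. No p is given for the ratio: an exact permutation test of 2 libraries against 2 cannot go below p = 0.333, and no model was fitted to it.

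Dendritic cells, neutrophils and monocytes showed few calls. In cDC2, Il1b was at 1651 ± 299 in AKI and 1469 ± 166 in CKD (SD, n = 2; log2 difference -0.25, adjusted p = 0.435). Il1a was lower in cDC2, at 41.0 and 40.4 in AKI against 11.3 and 15.2 in CKD, with 0 UMIs in the control (-1.68, adjusted p = 0.0049). That call was lost without AKI 2 (adjusted p = 0.0595), and it was 1 of 8 members tested, where 1.44% of 9264 genes were called lower. Within cDC2, the Il1a difference was -2.60 in cluster 35 (Ccl17, Ccl22, adjusted p = 0.0592) and -0.21 in cluster 24 (Cd209a, Clec10a, adjusted p = 0.897). The marker score of cluster 35 was 1.79 for cDC2 and 1.56 for macrophages, so its name is a close choice. Early response genes were lower in CKD for 3 of 11 in cDC2 as a whole, for 7 of 11 in cluster 35 (median log2 difference -1.33) and for 0 of 11 in cluster 24 (-0.13), so the list moved with Il1a between these clusters. Its part was not tested.

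The change of macrophages was set against that of cDC2 in 1 fit with the library as a block, where 12.1% of 11684 genes were called. It was more negative in macrophages by -0.998 for Il1b (SE 0.122, adjusted p = 5.4e-05), -0.998 for Il1a (adjusted p = 0.0048) and -1.14 for Nlrp3 (adjusted p = 4.2e-05). Nlrp3 in cDC2 was at 106, 98.2, 124 and 82.8 with overlapping groups. For Il1rn (0.21, adjusted p = 0.553), Pycard (-0.03, adjusted p = 0.905), Casp1, Il18 and Il1r2 no difference was called.

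In neutrophils 0 of 4 members tested were called by edgeR or DESeq2 (0% of 1211 genes), with 1 at an unadjusted p under 0.05. Their Il1rn was at 94.6 in the control (2 UMIs), 443 and 515 in AKI, and 520 and 330 in CKD. The log2 difference in Il1b was -0.51 (SE 0.194). In monocytes 0 of 6 members were called by either tool, with 0 at an unadjusted p under 0.05, against 0.0562% of 3557 genes. Monocyte Il1a was at 0, 57.2, 80.9 and 6.02 over the AKI and CKD libraries, and Il1rn at 36.8, 328, 104 and 110, so single libraries stood apart. These libraries held 23 to 64 monocytes each, which limits what could be detected.

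Of the 13 calls over all classes, 5 lay in cells named osteoclast-like macrophages, and these need care. In CKD the class carried the osteoclast genes Ctsk (6416 and 7767) and Acp5 (8401 and 9319), but its AKI cells (73 and 114) held Ctsk at 0 and 20.5 and Acp5 at 166 and 413. The name therefore does not hold for the AKI libraries. Il1b was at 693 and 852 in the AKI cells and 66.1 and 7.39 in CKD (929 and 191 cells). Il1a was at 113 and 145 in AKI and at 0.503 and 1.15 in CKD, and Nlrp3 at 115, 178, 8.22 and 6.08. Called lower were Il1a, Il1b, Il1rn, Nlrp3 and Pycard, 5 of 8 tested, where 8.15% of 10270 genes were called lower, and each call was lost in at least 1 leave-one-out fit. Casp1 was at 42.0 and 42.8 in AKI and 54.5 and 69.8 in CKD. Pycard was at 239 and 246 in AKI and 170 and 163 in CKD. The Ctsk-high cells of week 4 thus held less Il1b, Il1a and Nlrp3 (CPM) than the macrophage class, and Casp1 near its level. In CKD 1, 575 of the 929 cells lay in cluster 22. Its marker score was 0.896 for this class and 0.843 for thick ascending limb, so its name is a close choice. Over all libraries cluster 22 held 144 CPM of Il1b, cluster 36 held 276 and cluster 38 held 9.26.

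When macrophages and osteoclast-like cells were summed, which was chosen after the data were seen, 5 members were lower in CKD where 17.3% of 12574 genes were. They were Il1a (-3.42), Il1b (-1.91), Nlrp3 (-1.90), Il18 (-1.38) and Il1rn (-0.95, adjusted p = 0.0072). Pycard gave a log2 difference of 0.0060 (SE 0.116, adjusted p = 0.976).

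Pycard, the ASC adaptor, was the most widely spread member. Its levels were 118 in the control, 153 and 172 in AKI and 282 and 282 in CKD in T lymphocytes. After the toxin T lymphocytes held 43.0% to 65.1% of Pycard UMIs, beside 33.4% to 54.1% of the UMIs of all genes. The log2 difference was 0.80 (SE 0.087, adjusted p = 0.0211), without overlap. It was also seen in epithelium: the distal convoluted tubule held 113, 307, 341, 276 and 298, and the connecting tubule and principal cells 92.5, 228, 222, 175 and 198. In those classes the control lay below every later library and CKD was not called different from AKI. Over all kept cells the level was 67.0, 134, 154, 196 and 235, which moves with the mix of cells.

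Pycard was called higher in CKD in 4 of 9 T lymphocyte clusters tested, and those 4 are shown. The split was chosen after the data were seen. In the others the log2 difference was 1.02 (cluster 11), 0.61 (cluster 2), 0.51 (cluster 25), 0.26 (cluster 48) and 0.21 (cluster 4). None of these was called by edgeR, and DESeq2 called cluster 2 (adjusted p = 0.0412). Cluster 4, at 319 CPM of Pycard over all libraries, held 258 and 240 cells in AKI and 905 and 804 in CKD. The part of this in the class-wide difference was not tested. In CD8 cluster 1 Pycard went from 105 and 111 to 279 and 235 (1.22, adjusted p = 0.0049). In CD8 cluster 3 it went from 147 and 172 to 325 and 297 (0.96, adjusted p = 0.0132). In the Cd4 cluster 0 it went from 111 and 113 to 208 and 226 (0.92, adjusted p = 0.0466), and in the Foxp3 cluster 8, regulatory T cells, from 182 and 210 to 286 and 289 (0.53, adjusted p = 0.0354). Of all genes, 3.01%, 1%, 0.436% and 3.15% were called in these clusters. In T lymphocytes as a whole 6.38% of genes were called higher and 1.89% lower, and 2 members were higher (Pycard and Il1r2) and 1 lower (Il1a, at 1.19 and 1.88 in AKI and 0.268 and 0.303 in CKD) of 10 tested. All 3 calls, and those of the 4 clusters, were lost without AKI 1 or without AKI 2: Pycard then had an adjusted p of 0.288 or 0.222, Il1r2 of 0.304 or 0.242 and Il1a of 0.304 or 0.369. Early response genes were lower for 5 of 11 in T lymphocytes, and their part was not tested. Il1a in epithelium was at 2.23 and 0.983 in AKI and 0.600 and 0.525 in CKD. The T lymphocyte Il1a call thus lies at a level also seen in epithelium, and the part of free RNA in it was not tested.

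**Figure D4:**
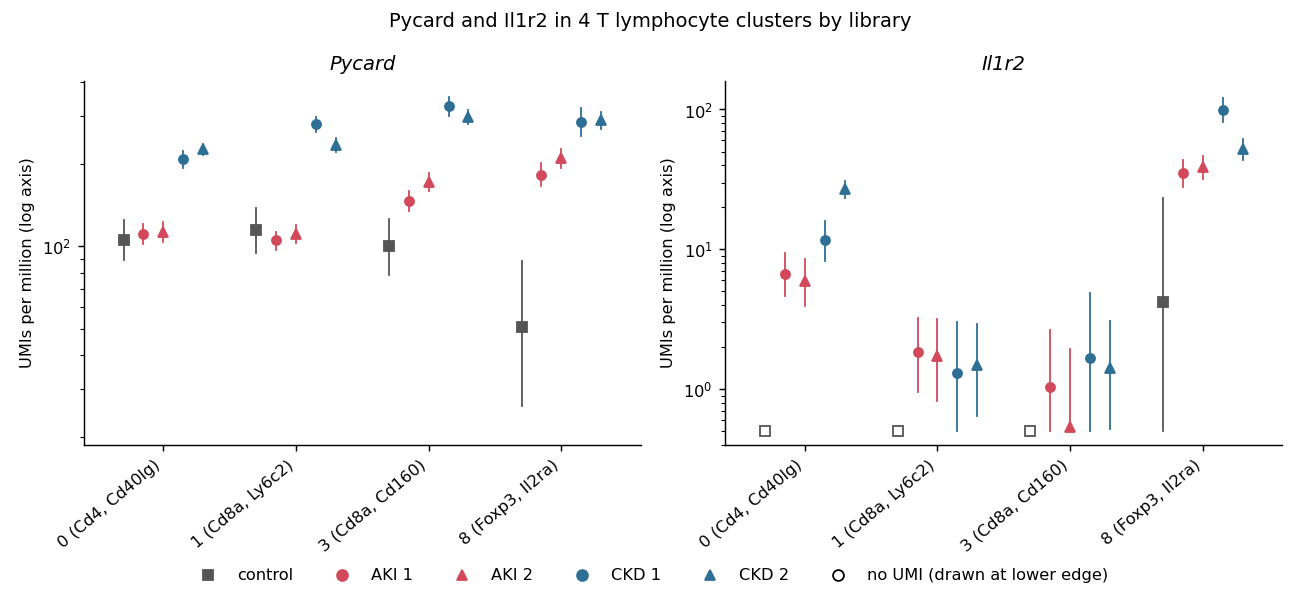
CPM (log axis) of Pycard and Il1r2 in 4 T lymphocyte clusters; each point is 1 library with its exact 95% Poisson interval, and open symbols had no UMI. The clusters shown are the 4 of 9 tested in which Pycard was called higher in CKD. The order of its levels there thus follows from that choice. Among them Il1r2 was highest in the Foxp3 cluster, at 35.0 and 38.5 in AKI and 99.9 and 51.8 in CKD.

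Il1r2, the decoy receptor, was highest in neutrophils, at 473, 2397, 2347, 1730 and 3241 CPM, with cDC2 next at 56.7, 92.8, 76.5, 67.7 and 67.4. Neither range overlapped that of the class below it. In T lymphocytes it was lower, at 0.444, 7.64, 9.58, 15.3 and 17.1, but they were many. They held 3.23% of the control's 62 UMIs, 28.2% and 32.0% in AKI and 40.0% and 54.2% in CKD. Neutrophils held 35.2% and 25.8% in AKI and 14.3% and 16.0% in CKD, and cDC2 20.8% to 29.03% over the 5 libraries. Neutrophils thus held the most in AKI 1, T lymphocytes in AKI 2 and both CKD libraries, and macrophages in the control (35.5%). The log2 difference in T lymphocytes was 0.92 (SE 0.156, adjusted p = 0.0373). It was uneven among their clusters. Foxp3 cluster 8 held 35.0 and 38.5 in AKI and 99.9 and 51.8 in CKD (0.91, adjusted p = 0.0763; DESeq2, 0.0462). Cd4 cluster 0 held 6.70 and 5.89 against 11.6 and 26.8 (1.66, adjusted p = 0.140, and 0.0498 by DESeq2). CD8 clusters 1 and 3 stayed at 0.539 to 1.86. Cluster 48, also marked by Foxp3, held 47.8 over all libraries, against 47.4 in cluster 8. The log2 difference was 1.33 in cluster 2, 0.68 in cluster 4 and 0.64 in cluster 48, none called by edgeR or DESeq2.

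Il1r1, the signalling receptor, had its highest levels outside the myeloid classes. Gamma-delta T lymphocytes marked by Il17a and Trdc held the most, at 61.2, 91.3, 86.2, 105 and 61.9, on 3 to 26 UMIs. Fibroblasts and pericytes held 30.6, 38.1, 62.1, 17.2 and 37.4, connecting tubule and principal cells 36.0, 27.5, 30.3, 22.9 and 33.6, and intercalated cells 22.4, 27.2, 27.2, 18.2 and 20.3. Endothelial cells held 10.3 and 16.5 in AKI, 9.17 and 24.2 in CKD and 24.99 in the control. The ranges of these neighbours overlapped, so no order among them was set beyond the spread. The epithelial classes were its main source in the control, with 35.8% of UMIs in intercalated cells and 33.3% in connecting tubule and principal cells. No difference between CKD and AKI was called in any of 8 classes tested by edgeR or DESeq2, with 1 at an unadjusted p under 0.05.

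**Figure D5:**
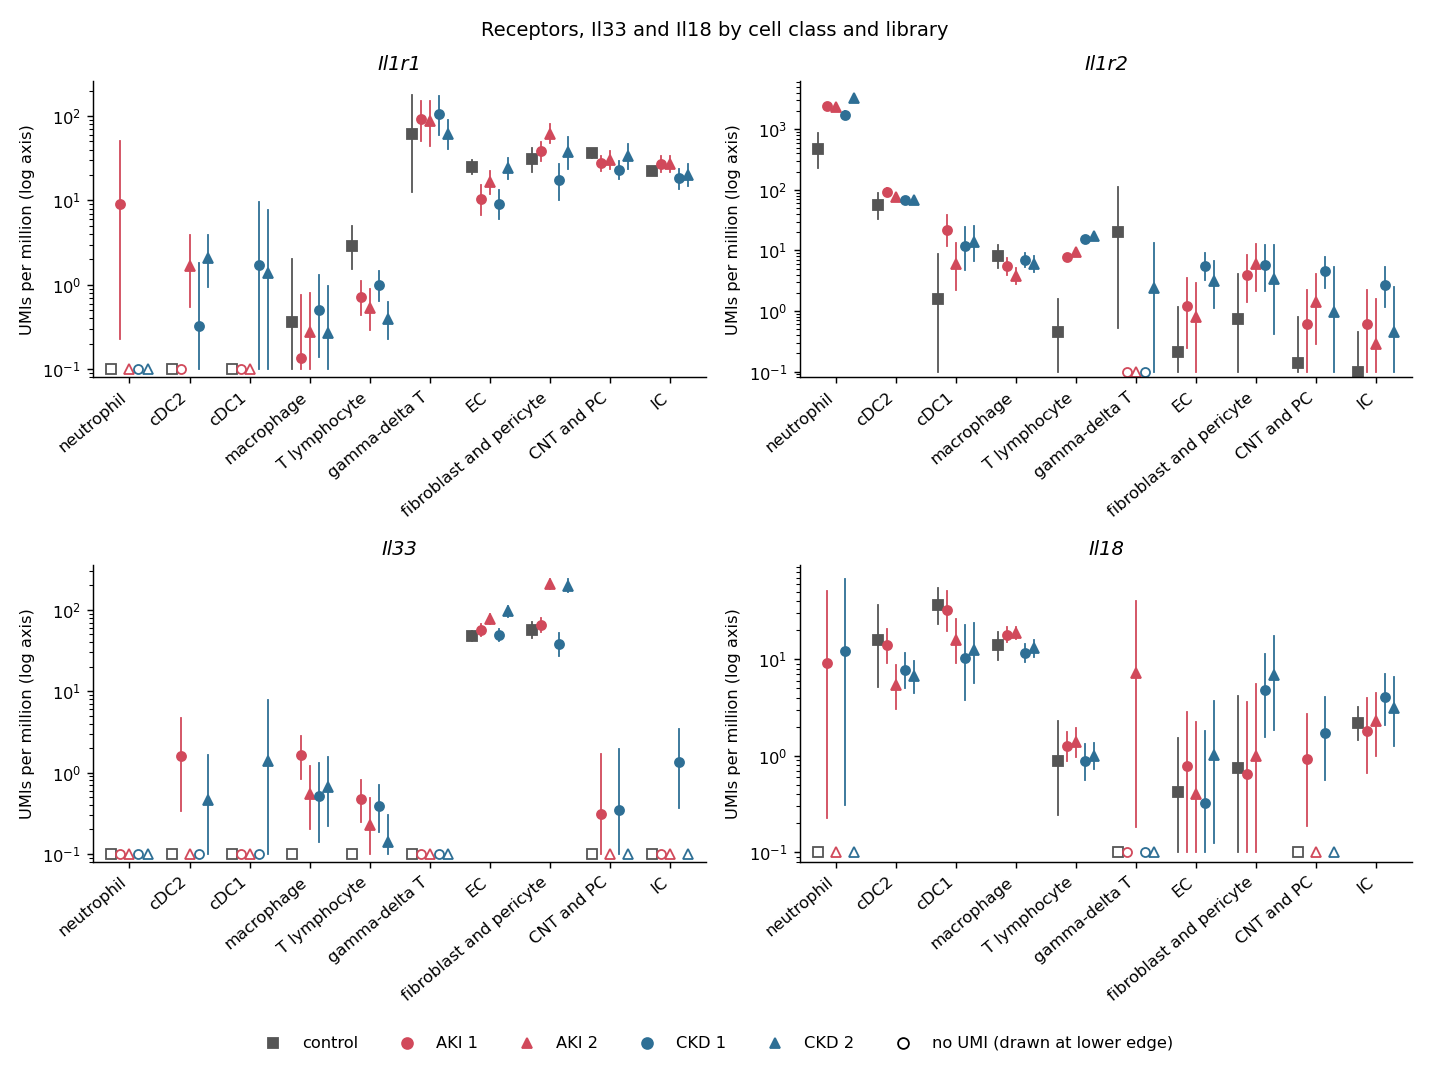
CPM (log axis) of Il1r1, Il1r2, Il33 and Il18 in 10 cell classes; each point is 1 library with its exact 95% Poisson interval, and open symbols had no UMI. Il33 lay in fibroblasts and pericytes (38.3 to 209) and endothelial cells (47.9 to 95.9), and Il1r2 in neutrophils (473 to 3241). EC, endothelial cells; CNT and PC, connecting tubule and principal cells; IC, intercalated cells.

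Il33, an alarmin of barrier and stromal cells, had its highest levels in fibroblasts and pericytes and in endothelial cells. The ranges of these classes overlapped, with endothelial cells the higher in CKD 1, and that of endothelial cells did not overlap the next class. Endothelial cells held 47.9, 57.0, 78.0, 49.1 and 95.9 CPM and 44.8% to 72.6% of its UMIs. Within them the Plvap and Kdr cluster 5 held 60.5, 64.5, 86.7, 85.4 and 108, and the Plat and Meis2 cluster 19 held 7.71 to 43.0 on 2 to 11 UMIs. Fibroblasts and pericytes held 57.5, 65.9, 209, 38.3 and 199, so the replicates of both stages lay far apart. There the Dcn and Col1a1 cluster 37 held 182, 193, 363, 92.5 and 285, while the Rgs5 and Acta2 cluster 33 held 1.08, 2.90, 13.4, 0 and 25.5. Among endothelial cells 0 of 5 members were called by either tool (0% of 10625 genes), with 1 at an unadjusted p under 0.05, and among fibroblasts and pericytes 0 of 4 (0% of 9139 genes), also with 1.

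Il18 had no class that stood above its neighbours, and the ranges of its 6 highest classes overlapped. In type 1 dendritic cells it was at 36.6, 32.3, 15.9, 10.3 and 12.5, and in proximal tubule at 2.81 to 5.12. Its binding protein Il18bp, a decoy, was lower in CKD macrophages (24.1 and 22.8 against 8.89 and 11.1, log2 difference -1.40, adjusted p = 0.0027). Of the interleukin-18 receptor chains, Il18r1 was at 103, 53.2, 51.3, 87.1 and 109 in natural killer cells. It was at 20.4, 103, 129, 105 and 167 in gamma-delta T lymphocytes. T lymphocytes held 26.9 to 41.7 and thin limb cells 13.5 to 37.5. The other chain, Il18rap, was at 189, 127, 91.6, 121 and 240 in neutrophils and 176, 87.2, 49.9, 94.2 and 98.0 in natural killer cells. The neutrophil values were the higher in all 5 libraries, without intervals. Il1rl1, the receptor of interleukin-33, was at 20.4 to 42.9 in gamma-delta T lymphocytes and 4.13 to 11.8 in T lymphocytes. Il1rap, the accessory chain, was highest in neutrophils, at 94.6, 163, 137, 194 and 195. No intervals were computed for these receptor genes, and some values rest on few counts. The control held 9 neutrophils with 21143 UMIs of all genes and 11 gamma-delta T lymphocytes with 49055.

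A list of 44 further genes of the pathway was also read in macrophages, where 36 were tested, 3 were higher and 14 lower in CKD, with a median log2 difference of -0.38. Lower priming genes and brakes included Nfkbiz (-1.58), Tlr2 (-1.44), Tnfaip3 (-1.002) and Txnip (-0.68), 6 of 9 tested. Among sensors Aim2 (-1.11), Naip2 (-0.98) and Naip5 (-0.86) were lower and the pyrin gene Mefv was higher (1.64; 3.94 and 6.68 in AKI, 14.1 and 23.7 in CKD). Casp4, the caspase of the non-canonical inflammasome, was lower (-0.83), and the pore formers Gsdmd (0.48) and Gsdme (0.95) were higher. Among receptor signalling genes Irak3 (-1.32), Irak4 (-0.67) and Myd88 (-0.50) were lower, 3 of 8. In cDC2 0 of 34 genes were called, and in T lymphocytes 0 were higher and 2 lower (Txnip and Tnfaip3) of 35. All genes tested in macrophages had 15.3% lower and 15.7% higher.

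Over the 20 classes with at least 20 cells per library, 92 pairs of member and class were tested, and 13 were called, 2 higher and 11 lower in CKD. Leaving out 1 library gave 7 calls without AKI 1, 5 without AKI 2, 18 without CKD 1 and 23 without CKD 2. The calls lay in 4 classes, in which many genes beside the members were called. In macrophages 1772 of all 11597 genes tested were called lower and 1818 higher, and in osteoclast-like macrophages 837 and 757 of 10270. In cDC2 133 were lower and 43 higher of 9264, and in T lymphocytes 261 and 882 of 13818. In the other 16 classes 0 of 58 pairs were called by edgeR or DESeq2, with 9 at an unadjusted p under 0.05, where 0% to 1.02% of genes were called. Over all kept cells 0 of 10 members were called by edgeR, 2 by DESeq2, and 6 had an unadjusted p under 0.05, where 0.0465% of 17204 genes were called. That count became 6 without CKD 1 and 1 without CKD 2.

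The patterns of members over classes were set beside those of 12938 genes as a description, over 22 classes that share libraries and depth. Il1b was most like Gm46224 (Pearson r = 0.979), Nlrp3 (0.962) and the platelet-activating factor receptor Ptafr (0.956). Il1a was most like Clec5a (0.976), Nlrp3 like Ptafr (0.977), and Il1r2 like A530064D06Rik (0.957). Il33 was most like the matrix genes Fbln5 (0.982), Mfap2 (0.980) and Thbs2 (0.979). Pycard (highest r 0.770, Tep1) and Il1r1 (0.805, Sox13) had no pattern as close.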

How the data were processed

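Kidney cells were measured by 10x 3′ single-cell RNA sequencing in 5 libraries (1 control, 2 AKI, 2 CKD), grouped by their labels. The values are UMI counts per gene and cell that the authors deposited as matrices. The AKI and CKD matrix headers name Cell Ranger 5.0.0, while the submitters' processing notes name 7.2.0 and GRCm39; the control matrix was re-exported with an mm10 gene list. Free RNA removal and the integration used in the study were not repeated.

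Barcodes with at least 200 genes and at most 30% mitochondrial UMIs were kept, and doublets were removed by a neighbour score at 0.8% per 1000 cells. Cells were clustered (3000 variable genes without the members, 40 components aligned by library, 15 neighbours, Leiden resolution 1.5; leidenalg 0.10.2, Python 3.11.15) and named from marker lists. UMIs were summed per library and class, and CKD was compared with AKI by edgeR 4.0.16 (R 4.3.3) quasi-likelihood tests with Benjamini-Hochberg adjustment over all genes, with at least 20 cells of a class in each of the 4 libraries. A call is an adjusted p under 0.05. DESeq2 1.42.0 was an alternative. Intervals are exact at 95% and, like the floor of 3 counts, cover counting error only. Every member was named, with up to 4 further genes per role and the 3 genes most alike. On simulated counts the macrophage fit (11425 genes) recovered 50 of 100 changes of log2 1 and 97 of 100 of log2 2 with 8 false calls, and the difference fit (7692 genes) 132 of 195 of log2 2 with 4 false calls. The members and lists were chosen with earlier results of these data known. Tests of single clusters, of both macrophage classes summed, and of differences were added after seeing the data.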

Additional observations from a re-analysis of the deposited data

Results flagged for a closer look

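The changes from AKI to CKD differed between 2 kinds of cell in a direct test (edgeR quasi-likelihood with the library as a block, adjusted over all genes). In macrophage cluster 40 (Fn1, Trem2) against macrophage cluster 29 (Lyz1, Mmp12), the log2 difference was -6.84 for Il1a, -3.97 for Il1b, -2.01 for Il1rn, -4.72 for Il1r2 and -3.00 for Nlrp3, and 1.40 for Casp1. The Il1r2 value rests on 1 UMI in cluster 40 in CKD. The cells of cluster 40 also differed between stages in Fn1 and Acp5, and the part of that in these values was not tested.

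In macrophages against cDC2, the log2 difference was -0.998 for Il1a, -0.998 for Il1b and -1.14 for Nlrp3. The early response list was lower in CKD for 11 of 11 genes in macrophages and 3 of 11 in cDC2, and its part was not tested. The macrophage class also differed between stages in Ctsk, Acp5 and Fn1, and the part of that was not tested. All of these comparisons were chosen after the data were seen.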

How the results depend on the processing

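Macrophage Il1a, Il1b and Nlrp3 stayed lower in CKD and past the threshold under every alternative run. The 13 calls over classes became 8 with at least 100 cells, 7 without correction by library, 5 to 23 when 1 library was left out (7 without AKI 1, 5 without AKI 2, 18 without CKD 1, 23 without CKD 2), and 15 with the replicate block. Over all kept cells the 0 calls became 2 by DESeq2, 1 with the replicate block and 0 to 6 leaving out 1 library (6 without CKD 1). With 2 pairs only, the numbers pair no samples: the correlation of same-numbered deviations ran from -0.112 to 0.272 over 20 classes, 6 of them over 0.1. With the replicate block T cluster 0 Il1r2 was called (1.54, adjusted p = 0.012).

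The macrophage share of Il1b in AKI, 61.4%, was 56.4% with doublets kept. In CKD, 35.4% became 28.5% with doublets kept and 23.9% without correction by library, and in the control 81.4% became 69.4% and 76.7%. Macrophages with an Il1b UMI were 40.9% in AKI and 26.1% in CKD thinned, and 60.2% and 39.2% unthinned. The Il1rn to Il1b ratio in CKD, 0.118, was 0.138 with doublets kept.

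Macrophage Il1rn was called lower without correction by library (-0.73, adjusted p = 0.0094), and cDC2 Il1a was then not called (adjusted p = 0.14). Directions turned for cDC2 Nlrp3 (0.0094 without correction, 0.25 with IL-1 genes allowed in clustering), macrophage Il1r2 (-0.29 with doublets kept, -0.17 at 15% mitochondrial UMIs, -0.13 without correction, -0.33 with osteoclast-like cells added) and macrophage Casp1 (-0.057 with IL-1 genes allowed). Leaving out 1 library gave -0.38 to 0.19 for cDC2 Nlrp3, -0.58 to 0.017 for macrophage Il1rn, -0.11 to 0.29 for macrophage Casp1 and -0.042 to 0.31 for cluster 29 Nlrp3. The cause was not tested in any of these. Classes with few UMIs, such as neutrophils, monocytes and gamma-delta T lymphocytes, are limited by depth.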
